A study of Mus musculus with 14 samples.

Results

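The transporters that carry bile constituents into and out of hepatocytes were examined in liver of male and female CD-1 mice before puberty (3 and 4 wk) and as adults (8 wk). The 10 genes are Abcb11, Abcb4, Abcc2, Abcg5, Abcg8, Abcg2 and Abcb1a of the canalicular membrane and Slc10a1, Abcc3 and Abcc4 of the basolateral membrane. They were chosen by name, with earlier results of these data known. A probe was assigned to a gene when its RefSeq accession mapped to the gene's symbol. The 10 genes had 11 probes (2 for Slc10a1), of 26055 probes and 19751 genes named in this way among 39429 probes on the array. The 6 groups were male liver at 3, 4 and 8 wk (M3, M4 and M8) and female liver at the same ages (F3, F4 and F8), all of the CD-1 strain and without treatment in the labels. RNA was pooled from 5 mice per pool at 3 wk and from 6 mice per pool at 4 and 8 wk, with 2 pools per group. Male and female liver were compared at each age, and 8 wk liver was compared with 3 wk and with 4 wk liver of the same sex. Each of these 7 comparisons was made on 2 Agilent 2-colour arrays, in which both groups competed for the same probes and the dyes were exchanged between the arrays. Values below are log2 expression ratios, positive when male liver was higher in a sex comparison or when 8 wk was higher in an age comparison. As pools of whole liver were measured, fewer cells of a type cannot be told apart from less RNA per cell.

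Bile forms when hepatocytes pump solutes across the canalicular membrane and water follows. Abcb11 (the bile salt export pump) exports bile salts, Abcb4 (Mdr2) moves phosphatidylcholine to the outer leaflet, the Abcg5 and Abcg8 heterodimer secretes sterols, and Abcc2, Abcg2 and Abcb1a export organic anion conjugates and xenobiotics. On the blood side, Slc10a1 (Ntcp) takes up conjugated bile salts with sodium, whereas Abcc3 and Abcc4 export bile salts and conjugates back to blood.

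Abcg5 and Abcg8 are transcribed away from each other on chromosome 17. Their RefSeq starts in GRCm38.p6 lie at 84683011 on the minus strand for Abcg5 and at 84683121 on the plus strand for Abcg8, and a second Abcg8 start is listed at 84676302. The M8/M3 log2 ratios read 1.20 for Abcg8 and 0.21 for Abcg5, a difference that was not itself tested. The 109 bases between the facing starts, which both genes share, are shown (plus strand, chr17:84683012-84683120).
Abcg5-Abcg8 region: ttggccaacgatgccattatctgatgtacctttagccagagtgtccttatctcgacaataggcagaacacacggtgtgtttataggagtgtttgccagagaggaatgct
Abcg2 and Abcb1a were the members that differed most between M8 and F8, in opposite directions. The 250 bases before each of their RefSeq starts are shown, all from the plus strand, with matches to AGGTCA, a nuclear receptor half-site, in capitals on either strand (the other strand reads TGACCT).
Abcg2 window chr6:58584283-58584532: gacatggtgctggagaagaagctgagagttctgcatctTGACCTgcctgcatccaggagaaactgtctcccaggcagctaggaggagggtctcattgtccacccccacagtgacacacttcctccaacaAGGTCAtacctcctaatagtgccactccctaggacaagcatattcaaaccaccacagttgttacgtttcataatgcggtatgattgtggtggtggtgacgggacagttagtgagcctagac
Abcg2 window chr6:58596422-58596671: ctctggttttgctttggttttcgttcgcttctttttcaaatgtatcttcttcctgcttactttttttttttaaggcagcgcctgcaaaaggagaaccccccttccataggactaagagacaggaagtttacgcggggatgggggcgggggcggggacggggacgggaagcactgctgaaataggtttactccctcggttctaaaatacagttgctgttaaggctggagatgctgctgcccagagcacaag
Abcg2 window chr6:58640296-58640545: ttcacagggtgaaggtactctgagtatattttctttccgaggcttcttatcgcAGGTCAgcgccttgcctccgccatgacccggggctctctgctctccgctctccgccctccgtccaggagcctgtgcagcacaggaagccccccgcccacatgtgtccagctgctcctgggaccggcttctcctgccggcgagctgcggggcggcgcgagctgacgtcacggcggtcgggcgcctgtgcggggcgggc
Abcb1a window chr5:8566841-8567090: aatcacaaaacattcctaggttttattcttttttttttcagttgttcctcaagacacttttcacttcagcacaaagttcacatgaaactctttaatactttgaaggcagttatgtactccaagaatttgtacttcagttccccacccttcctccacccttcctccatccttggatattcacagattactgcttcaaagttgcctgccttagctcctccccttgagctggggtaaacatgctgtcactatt
RefSeq windows were listed for 9 of the 10 genes (14 windows). AGGTCA was present in 5 of these 14 windows and in 14.0% of 32851 windows of all genes. The windows with it belonged to Abcg2 (more than 1 window), Abcb11, Abcc2 and Slc10a1. Among these genes, Abcb11, Abcc2 and Slc10a1 were not called in any comparison below. A part of this motif in the ratios was not tested. TTCNNNGAA, the letters of a STAT5 site, was present in 1 of the 14, before an Slc10a1 start, and in 7.02% of all windows. Neither was found in the region between Abcg5 and Abcg8. The arrays do not show which start was used. The Abcb1a signal comes from 1 probe of 60 bases.
Abcb1a probe A_55_P1969477: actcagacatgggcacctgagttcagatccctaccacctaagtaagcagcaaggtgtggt

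Between 55.2% and 77.2% of the spots that were not controls were well above background in one channel of an array. All 11 transporter probes were well above background in all 28 channels, and no spot was saturated. A call required an adjusted p below 0.05 (limma, Benjamini-Hochberg adjustment over every probe and comparison), a ratio past 1.5-fold in either direction, and a signal well above background on both arrays for 1 group or the other. Hepatocyte markers (6 of 6, including Alb, Ttr and Hnf4a) were well above background in every channel, and 0 of them were called between the sexes. With age, Alb was called lower and Cyp2e1 higher in M8/M3 (log2 -0.71 and 0.59) and in M8/M4 (log2 -0.68 and 0.67).

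Of the 10 transporters, 0 were called in M3/F3 and 0 in M4/F4, where 0.517% and 1.58% of all genes were called. In M8/F8, Abcg2 was called higher and Abcb1a lower in male liver, against 2.65% of genes called higher and 3.74% called lower. From 3 to 8 wk in male liver, Abcc3, Abcg8 and Abcg2 rose and Abcb1a fell, against 7.81% of genes called higher and 10% called lower. Over the later interval, M8/M4, Abcg8 rose and Abcb1a fell, against 4.44% called higher and 6.38% called lower. In female liver only Abcc3 was called, as a rise from 3 to 8 wk (5.08% of genes called higher), and 0 transporters were called from 4 to 8 wk (6% called). One gene is 10% of this list, so a single call is the smallest count above 0 that the list allows. Abcb11, Abcb4, Abcc2, Slc10a1, Abcc4 and Abcg5 were called in 0 of the 7 comparisons.

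**Figure D1:**
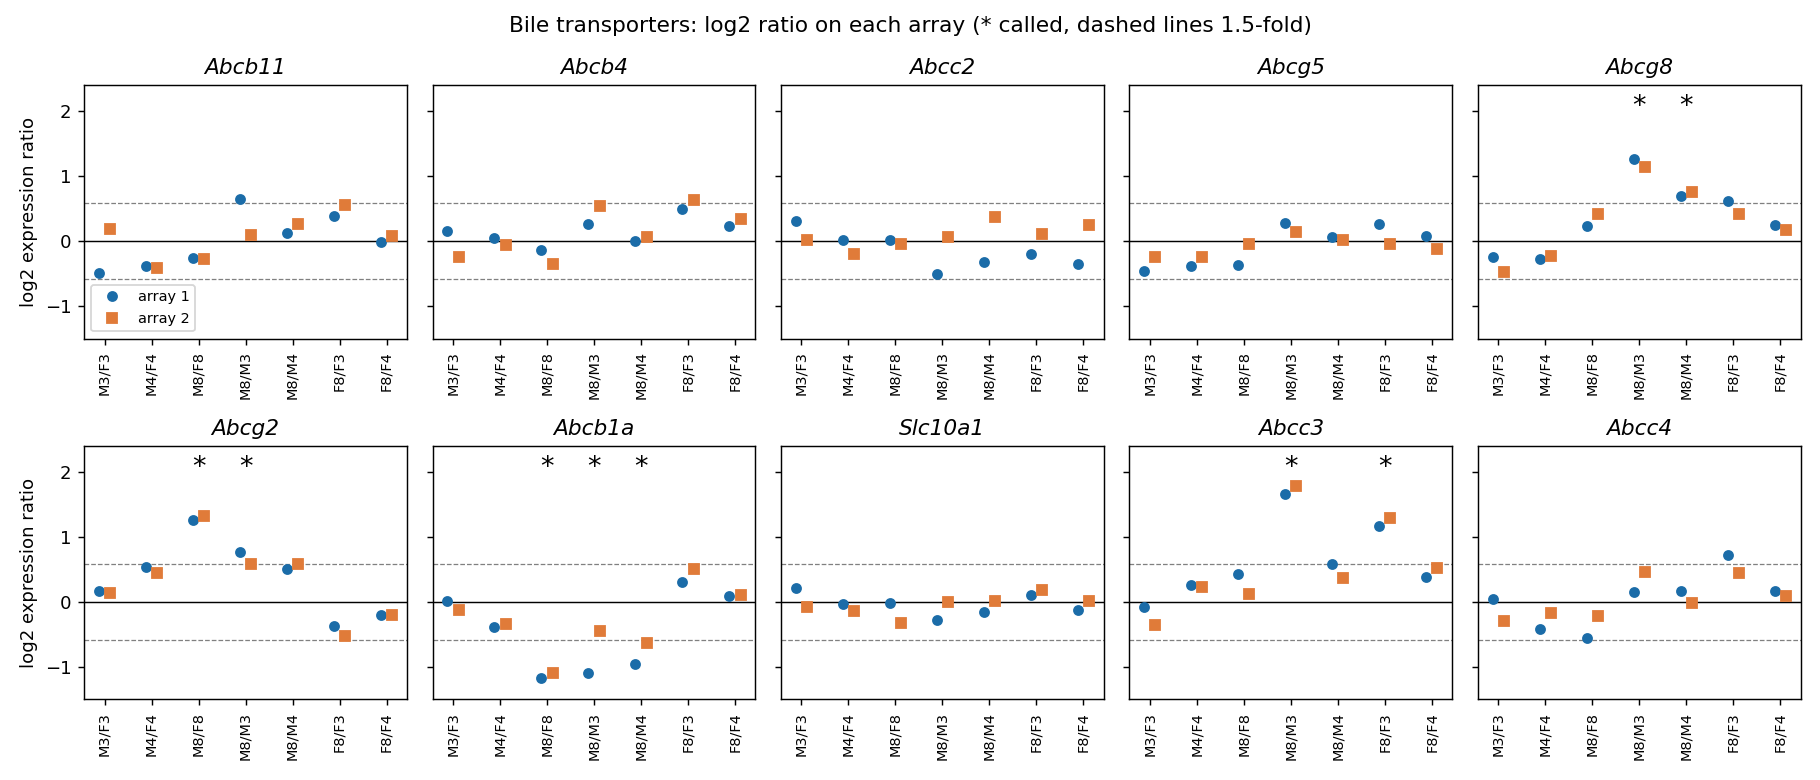
Log2 expression ratio of each of the 10 transporters on array 1 (circles) and array 2 (squares) of the 7 comparisons, with 1.5-fold as dashed lines and calls starred. The stars fall on Abcg8, Abcg2, Abcb1a and Abcc3, and in those comparisons both arrays lie on the same side of 0.

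From 3 to 8 wk the 10 transporters had a median log2 ratio of 0.34 in males and 0.44 in females, beside 0.01 and 0.02 over all genes tested. At 3, 4 and 8 wk the median male over female ratio was -0.09, -0.17 and -0.19, beside medians of 0.00 over all genes. In M8/M4 and F8/F4 the medians of the transporters were 0.06 and 0.07. Without the fold threshold, 2 transporters reached an adjusted p below 0.05 between the sexes at 3 wk (2.89% of all genes did), 2 at 4 wk (7.91%) and 5 at 8 wk (21.8%). The numbers were 6 in M8/M3 (42% of all genes) and 4 in M8/M4 (29.6%). In female liver they were 5 from 3 to 8 wk (33.7%) and 2 from 4 to 8 wk (21.3%).

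Abcg2, the breast cancer resistance protein that exports sulphate conjugates, urate and drugs, was male-biased in adult liver. Its M8/F8 log2 ratios were 1.26 and 1.32 on the 2 arrays, a 2.44-fold difference (log2 1.29, SE 0.06, adjusted p = 0.000107 by limma). At 4 wk the arrays read 0.53 and 0.44 (log2 0.48, adjusted p = 0.00218, under 1.5-fold), and at 3 wk 0.17 and 0.14 (log2 0.15, 95% interval 0.02 to 0.28, adjusted p = 0.132). Male liver was higher on all 6 sex arrays, and the 3 ages did not overlap. In male liver Abcg2 rose from 3 to 8 wk, with M8/M3 ratios of 0.77 and 0.58 (log2 0.67, SE 0.06, adjusted p = 0.000666). This call rested on the first M8/M3 array, without which the log2 ratio was 0.58 and just under 1.5-fold. The M8/M4 ratios were 0.51 and 0.59 (log2 0.55, adjusted p = 0.00136, under 1.5-fold). In female liver the ratios went the other way, with F8/F3 at -0.37 and -0.53 (log2 -0.45, adjusted p = 0.00286, under 1.5-fold) and F8/F4 at -0.20 on both arrays (adjusted p = 0.0585).

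The normalised log2 signal of Abcg2, which can be compared only within this probe, was 14.36 and 14.31 in the 2 replicates of M8, 13.79 and 13.69 in M4, and 13.70 and 13.67 in M3. It was 13.51 in both replicates of F3, 13.24 and 13.20 in F4, and 13.06 and 13.00 in F8. The order was therefore M8, M4, M3, F3, F4, F8, and neighbouring groups did not overlap except M4 and M3 (M4/M3 log2 0.12, 95% interval -0.06 to 0.31). The change of Abcg2 with age differed between the sexes, by log2 1.12 from 3 to 8 wk (adjusted p = 0.00177) and by log2 0.75 from 4 to 8 wk (adjusted p = 0.0108). With the pools shared between comparisons entered in the covariance, the second of these had an adjusted p of 0.0626 and was no longer called.

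Abcb1a, a P-glycoprotein that exports hydrophobic drugs, was female-biased in adult liver. Its M8/F8 log2 ratios were -1.18 and -1.09, so that the signal was 2.19-fold higher in female liver (log2 -1.13, SE 0.12, adjusted p = 0.0016). At 4 wk the ratios were -0.39 and -0.33 (log2 -0.36, 95% interval -0.64 to -0.08, adjusted p = 0.105), and at 3 wk they were 0.02 and -0.13 (log2 -0.06, 95% interval -0.34 to 0.23). The 8 wk arrays thus lay below those at 4 and 3 wk without overlap. Abcb1a fell in male liver, with M8/M4 ratios of -0.95 and -0.64 (log2 -0.79, adjusted p = 0.00625) and M8/M3 ratios of -1.09 and -0.45 (log2 -0.77, adjusted p = 0.00699). The M8/M3 arrays differed by more than those of any other Abcb1a comparison, and without the first of them the log2 ratio was -0.49 and under 1.5-fold. Without the first M8/M4 array that comparison had a log2 ratio of -0.71 with an adjusted p of 0.0673. With normexp background correction from the pixel medians the M8/M3 log2 ratio was -0.52, also under 1.5-fold.

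In female liver Abcb1a had F8/F3 ratios of 0.30 and 0.50 (log2 0.40, 95% interval 0.12 to 0.69, adjusted p = 0.0749) and F8/F4 ratios of 0.09 and 0.11. The normalised log2 signal was 6.93 and 7.22 in M8, below all other groups, and 8.31 to 8.35 in the 4 replicates of F4 and F8. M4, F3 and M3 lay between them, at 7.59 to 7.99, and overlapped. The change from 3 to 8 wk differed between the sexes by log2 -1.17 (adjusted p = 0.016), and that from 4 to 8 wk by -0.90 (adjusted p = 0.0639, not called). Without either F8/F3 array the first of these had an adjusted p of 0.0827 or 0.0833. Abcb1b, the other P-glycoprotein gene of the mouse and a close relative in sequence, went the other way in M8/F8 (log2 0.71, called higher in male liver). It is named here after its value was seen, and how far the probes of these related genes read each other's RNA was not tested.

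Markers of Kupffer cells, the macrophages of the liver, were also lower in M8 than in F8. Of the 5 measured, 5 were called lower in M8/F8 (median log2 -0.65), against 3.74% of all genes. In M8/M3 and M8/M4, 2 of 5 each were called lower (10% and 6.38% of all genes). In F8/F3 and F8/F4, 1 of 5 each was called lower (6.64% and 3.72%). In M4/F4, 1 of 5 was called lower, where 1.58% of all genes were called either way. Their summed signal was 7775 and 10068 in the replicates of M8, 12905 and 14485 in F8, 13718 and 15332 in M3, 14090 and 14866 in M4, 16539 and 17638 in F3, and 17472 and 18034 in F4. All 5 were well above background in every channel. Endothelial markers moved less in M8/F8, where 0 of 6 were called (median log2 -0.11). Of these 6 markers, 1 was called lower in each of M8/M3, M8/M4 and F8/F3, and 0 were called in F8/F4. Their part and that of Kupffer cells in the Abcb1a ratio was not tested.

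Abcg8 and Abcg5 encode the partners of the sterol exporter. Abcg8 rose in male liver, with M8/M3 log2 ratios of 1.26 and 1.14, a 2.30-fold rise (log2 1.20, SE 0.07, adjusted p = 0.000244). The M8/M4 ratios were 0.69 and 0.75 (log2 0.72, SE 0.07, adjusted p = 0.00135), and all 4 male age arrays were above 1.5-fold. After normexp background correction from the pixel medians the M8/M3 log2 ratio was smaller, at 0.77 and still called, and that of M8/M4 was 0.58, just under 1.5-fold. In female liver the F8/F3 ratios were 0.62 and 0.42 (log2 0.52, adjusted p = 0.00468, under 1.5-fold), with 1 array on each side of the fold threshold. Without the second F8/F3 array the log2 ratio was 0.61 and was called.

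The sex ratio of Abcg8 changed sign between 3 and 8 wk, while remaining under 1.5-fold at each age. It was -0.24 and -0.47 in M3/F3 (log2 -0.36, adjusted p = 0.0196), -0.27 and -0.24 in M4/F4 (log2 -0.25, adjusted p = 0.0656), and 0.24 and 0.42 in M8/F8 (log2 0.33, adjusted p = 0.0262). The arrays at 8 wk were above 0 and the 4 arrays at the younger ages below it. The difference between the sexes in the change from 3 to 8 wk was log2 0.68 (adjusted p = 0.0182), and that from 4 to 8 wk was 0.52 (adjusted p = 0.0741, not called). The first of these was no longer called with the shared pools in the covariance (adjusted p = 0.108) or after normexp (log2 0.39, adjusted p = 0.151), and leaving out any of the 4 arrays of M8/M3 and F8/F3 gave adjusted p of 0.0558 to 0.108. In normalised log2 signal, M8 (8.39 and 8.44) was above F8 (8.15 and 8.07), F8 above F4 (7.89 and 7.85) and F4 above M4 (7.65 and 7.61). M4 overlapped F3 (7.48 and 7.70), and M3 was lowest (7.15 and 7.27).

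Abcg5 did not follow Abcg8 across these groups. Its M8/M3 ratios were 0.28 and 0.14 (log2 0.21, 95% interval 0.10 to 0.33) and its M8/M4 ratios 0.06 and 0.01 (log2 0.04, 95% interval -0.08 to 0.15). These intervals lie below those of Abcg8 in the same comparisons (1.03 to 1.38 and 0.55 to 0.89), although the difference between the 2 probes was not itself tested. Abcg5 was lower in male liver on all 6 sex arrays, at -0.46 and -0.25 in M3/F3 (log2 -0.35, adjusted p = 0.0044), -0.39 and -0.24 in M4/F4 (log2 -0.31, adjusted p = 0.0068) and -0.37 and -0.04 in M8/F8 (log2 -0.21, adjusted p = 0.034). All of these were under 1.5-fold. The lowest female replicate (13.66 in F3) overlapped the highest male replicate (13.67 in M8) in normalised log2 signal.

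**Figure D2:**
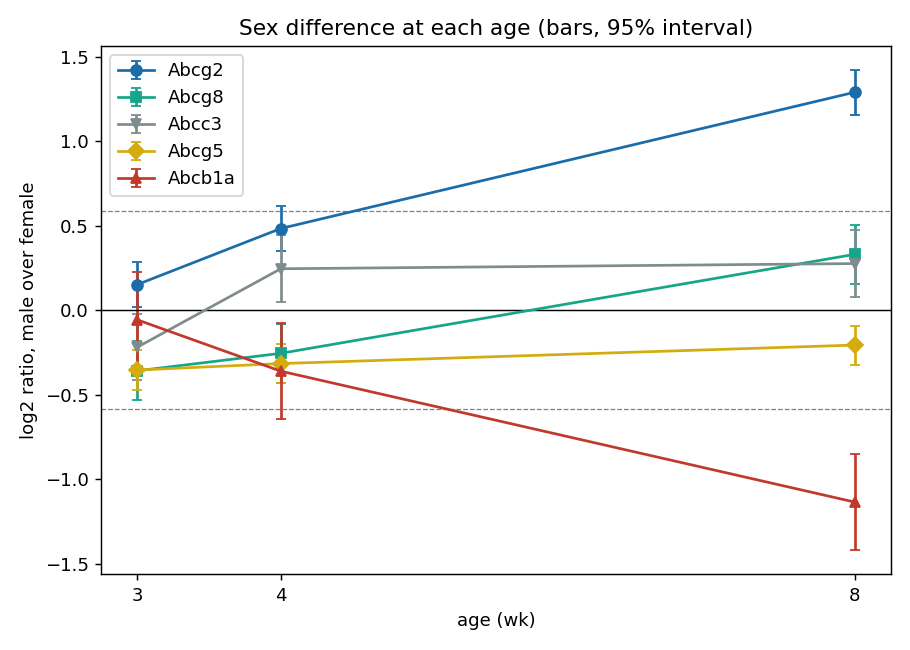
Log2 ratio of male over female at 3, 4 and 8 wk for 5 transporters, with 95% intervals and 1.5-fold as dashed lines. Abcg2 climbs from 0.15 to 1.29 and Abcb1a drops from -0.06 to -1.13, Abcg8 crosses 0 from -0.36 to 0.33, and Abcg5 remains below 0.

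The bile salt pump Abcb11 was called in 0 comparisons. Its F8/F3 ratios were 0.39 and 0.55 (log2 0.47, 95% interval 0.08 to 0.87, adjusted p = 0.12) and its M8/M3 ratios 0.65 and 0.09 (log2 0.37, 95% interval -0.02 to 0.76). Its sex ratios were -0.39 and -0.41 in M4/F4, -0.27 on both arrays of M8/F8, and -0.49 and 0.19 in M3/F3. The replicates of M3 (14.86 and 15.35 in normalised log2 signal) were the widest apart of any group for this probe. F8 and F4 (15.52 to 15.60) lay above M8 (15.39 and 15.38).

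Abcb4, which supplies the phospholipid of bile, had F8/F3 ratios of 0.50 and 0.63 (log2 0.56, SE 0.06, adjusted p = 0.00145) and M8/M3 ratios of 0.26 and 0.53 (log2 0.40, adjusted p = 0.0054). Both were above 0 on all arrays and under 1.5-fold. Without the second F8/F3 array, its log2 ratio in that comparison was 0.59 and was called. From 4 to 8 wk the ratios were 0.23 and 0.34 in female liver (log2 0.29, adjusted p = 0.019) and 0.00 and 0.06 in male liver (log2 0.03, 95% interval -0.11 to 0.17). The M8/F8 ratios were -0.14 and -0.35 (log2 -0.25, adjusted p = 0.0328).

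Abcc2 (Mrp2), the canalicular pump for bilirubin and glutathione conjugates, had log2 ratios between -0.22 and 0.16 in all 7 comparisons. Its 2 arrays lay on opposite sides of 0 in 6 of them, and the widest 95% interval bound was -0.49 (M8/M3). In normalised log2 signal M3 (12.05 and 11.99) overlapped M8 (11.55 and 12.02) and F8 (11.51 and 12.04).

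Slc10a1, the sodium-dependent uptake transporter, had log2 ratios between -0.17 and 0.14 on probe A_55_P1954987, whose 95% intervals reached no further than -0.28 and 0.25. Its second probe, A_52_P69109, read -0.46 and -0.29 in M8/F8 (log2 -0.37, adjusted p = 0.0517), while the first read -0.02 and -0.32 (log2 -0.17, adjusted p = 0.0522). On both probes M8/F8 was below 0, and neither was called. In F8/F4 the probes differed in sign, at log2 0.25 on the second and -0.06 on the first.

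Abcc3 (Mrp3), which exports glucuronides and bile salts to blood, showed the largest ratio among the 10 genes. Its M8/M3 log2 ratios were 1.66 and 1.78, a 3.29-fold rise (log2 1.72, SE 0.08, adjusted p = 0.00013), and its F8/F3 ratios 1.16 and 1.28, a 2.33-fold rise (log2 1.22, SE 0.08, adjusted p = 0.000348). It rose on all 4 arrays, and the male arrays were above the female ones. From 4 to 8 wk the ratios were 0.58 and 0.37 in male liver (log2 0.48, adjusted p = 0.0109) and 0.39 and 0.52 in female liver (log2 0.45, adjusted p = 0.0131), both under 1.5-fold. The male value rested on both M8/M4 arrays, being 0.66 and called without the second and 0.29 and not called without the first.

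Most of the Abcc3 change therefore lay between 3 and 4 wk. No array compared these ages directly. M8/M3 and M8/M4 were scanned on different days, whereas F8/F3 and F8/F4 were scanned on the same day. The M4/M3 ratio was taken as M8/M3 minus M8/M4. It was log2 1.24 in male liver (SE 0.12, adjusted p = 0.0214), where Abcc3 was the 1 transporter called against 0.113% of all genes called higher. In female liver F4/F3 was log2 0.77 (95% interval 0.49 to 1.05, adjusted p = 0.0918), and 0 transporters were called against 0.093% of genes. The male value was not called when any of 8 arrays was left out (adjusted p of 0.0534 to 0.084), and the female value was called with the shared pools in the covariance (adjusted p = 0.0272). In normalised log2 signal Abcc3 was 12.43 and 12.07 in M3 and 12.52 and 12.54 in F3, against 13.31 to 13.58 in the 4 replicates at 4 wk and 13.68 to 14.10 at 8 wk. The 3 ages did not overlap. The sex ratios were 0.43 and 0.13 in M8/F8 (log2 0.28, adjusted p = 0.0761), 0.26 and 0.23 in M4/F4, and -0.07 and -0.36 in M3/F3. The sexes differed in the change from 3 to 8 wk by log2 0.50 (95% interval 0.22 to 0.78, adjusted p = 0.0709), which was not called.

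Bile duct cells also express Abcc3. Of 6 bile duct markers, 1 (Cftr) was called higher and 2 (Krt7 and Krt19) lower in M8/M3, with a median log2 ratio of -0.55, and Cftr was called higher and Sox9 lower in F8/F3. From 4 to 8 wk Cftr was again called higher in both sexes, with Krt19 lower in male and Sox9 lower in female liver, and Spp1 was called higher in M4/F4 (log2 0.92). The summed signal of the 6 was 5595 and 5794 in F3, 4301 and 3732 in F4, and 4454 and 4429 in F8. It was 9287 and 6846 in M3, 8638 and 5703 in M4, and 5647 and 6471 in M8. These sums are of linear signal. Spp1 was the brightest of the markers (mean log2 signal 12.05, with Cftr next at 9.17), so the sums mostly follow Spp1. The part of bile duct cells in the Abcc3 ratio was not tested.

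Abcc4 (Mrp4), the basolateral exporter of bile salts with glutathione, had F8/F3 ratios of 0.72 and 0.45 (log2 0.58, SE 0.13, adjusted p = 0.0288), at the edge of the fold threshold and not called. Its M8/M3 ratios were 0.14 and 0.46 (log2 0.30, 95% interval -0.01 to 0.61). The M8/F8 ratios were -0.56 and -0.22 (log2 -0.39, 95% interval -0.70 to -0.07, adjusted p = 0.111), and those of M4/F4 were -0.41 and -0.16. Both female groups at 4 and 8 wk (8.43 to 8.71 in normalised log2 signal) lay above the male groups (8.08 to 8.32).

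**Figure D3:**
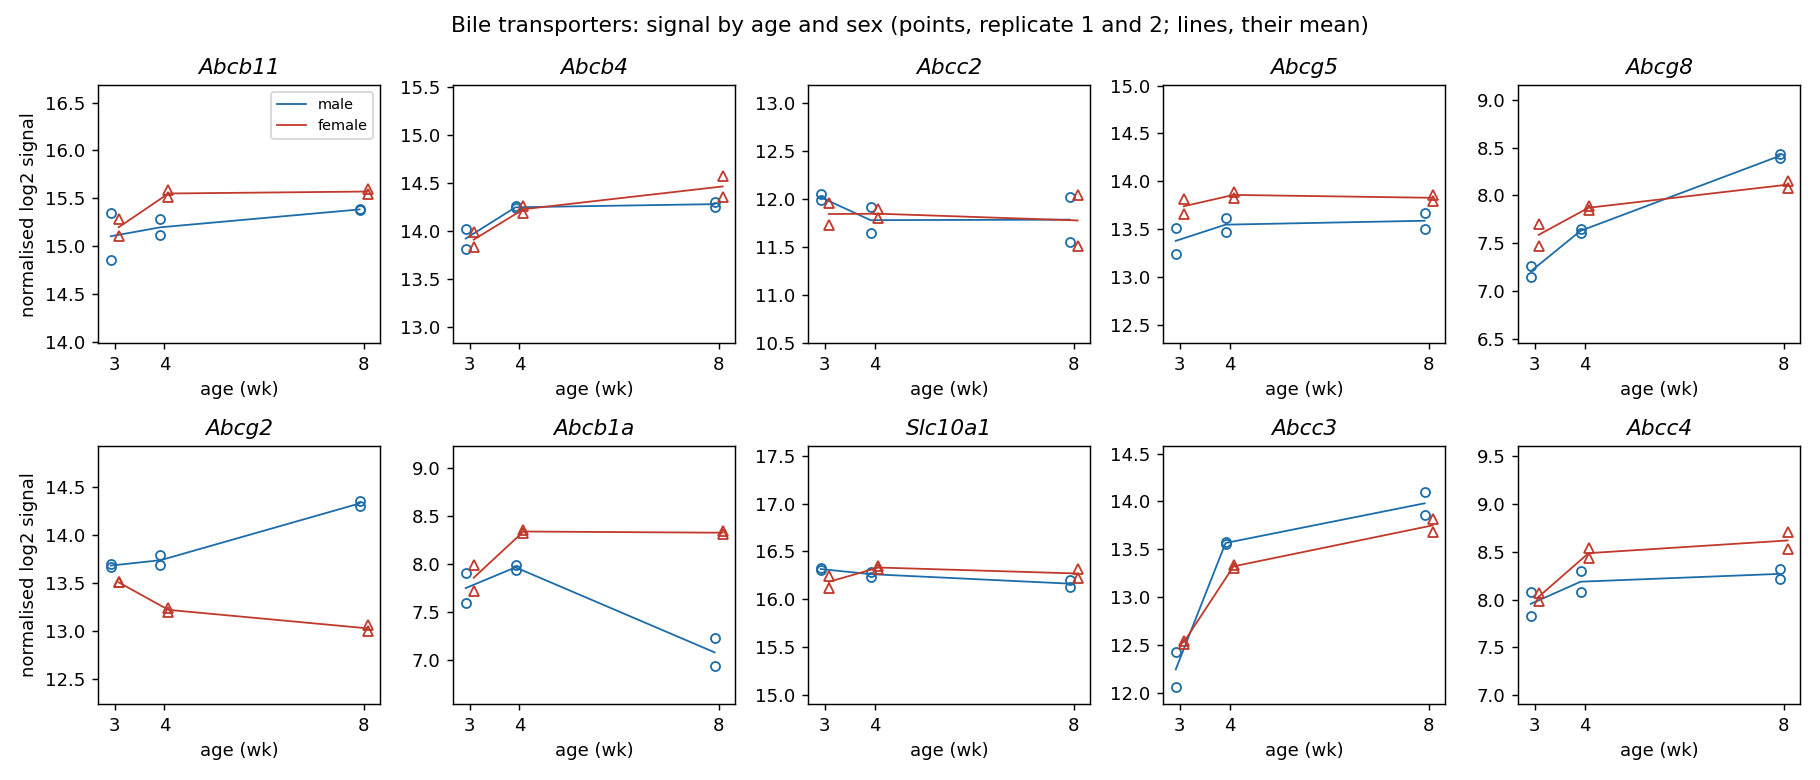
Normalised log2 signal of the 10 transporters against age in wk, male in blue circles and female in red triangles, each point 1 replicate and each line the mean; every panel spans the same range of log2 units. The male and female lines move further apart after 3 wk for Abcg2 and Abcb1a, cross between 4 and 8 wk for Abcg8, and climb in both sexes for Abcc3, crossing between 3 and 4 wk.

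The change with age was then compared between the sexes for all 10 genes. From 3 to 8 wk, 2 were called more positive in male liver (Abcg2 and Abcg8) and 1 more negative (Abcb1a), against 1.61% and 1.74% of all genes. From 4 to 8 wk, Abcg2 alone was called, against 0.732% of genes called higher. M8/M3 and F8/F3 were scanned on different days, whereas M8/F8 and M3/F3 were scanned on the same day and give the same difference by another route. By that route the difference was 1.14 for Abcg2, 0.69 for Abcg8 and -1.08 for Abcb1a, next to 1.12, 0.68 and -1.17 from the age arrays. Both routes share the pools and are not independent. The fit treats the arrays as independent although they share pools. On simulated arrays with shared pools it made more false calls for the difference from 3 to 8 wk than the adjusted p allows. The difference from 4 to 8 wk was not simulated.

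Markers of cycling, stellate and lymphoid cells were also called in these comparisons. Over all genes, the share called lower was 3.74% in M8/F8, 10% for M8/M3 and 6.38% for M8/M4, and in female liver 6.64% from 3 wk and 3.72% from 4 wk to 8 wk. Of 5 markers of cycling cells, 5 were called lower in each of the 4 age comparisons (medians from log2 -3.79 to -2.94). In M8/F8, 1 of these 5 markers was called lower (median log2 -0.39). Their summed signal was 532 to 638 in the replicates of M8 and F8 against 5532 to 9116 in those of M3 and F3. Stellate cell markers were lower in M8/M3 for 2 of 5 and in each of the other age comparisons for 1 of 5, and 1 of 5 lymphocyte markers was lower in each of M8/F8, M8/M3 and M8/M4. Their part in the transporter ratios was not tested.

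**Figure D4:**
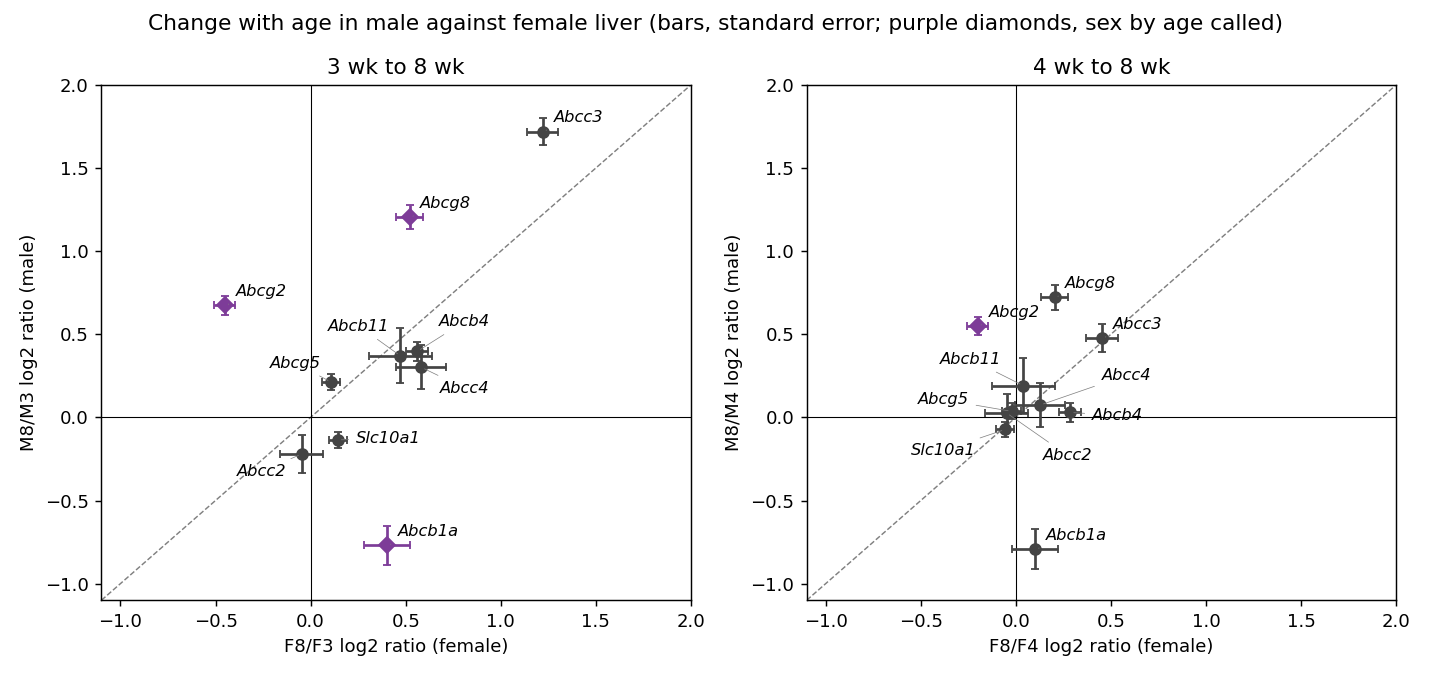
Log2 ratio of 8 wk over 3 wk (left) or 4 wk (right) in male liver against that in female liver, with standard errors; the dashed line marks equal change and diamonds mark genes whose difference between the sexes was called. Abcg2 (0.67 against -0.45) and Abcb1a (-0.77 against 0.40) lie on opposite sides of 0 in the sexes at left, and Abcc3 (1.72 against 1.22) lies far along both axes.

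Genes that work with these transporters were examined through 5 further lists. Of 11 genes of bile acid synthesis and conjugation, 5 rose and 1 fell in M8/M3 (7.81% and 10% of all genes did), and 3 rose in F8/F3 (5.08% of all genes). Cyp7b1, the oxysterol hydroxylase of the alternative pathway, was higher in M8 than in F8 (log2 2.81, adjusted p = 0.0086) and rose in M8/M3 (log2 4.17, adjusted p = 0.0019). Cyp7a1, the rate-limiting enzyme of the classical pathway, was lower in male liver at 4 wk (log2 -1.56, adjusted p = 0.0037) and 8 wk (log2 -1.61, adjusted p = 0.0033). Cyp8b1, which forms cholic acid, rose in M8/M3 (log2 1.37) and F8/F3 (log2 0.78). Akr1d1, the bile acid reductase, was lower in M8 than in F8 (log2 -0.77) and fell in M8/M3 (log2 -0.62).

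Of 17 further hepatic transporters and flippases, 2 were called higher and 1 lower in M8/F8 (2.65% and 3.74% of all genes), 3 higher and 2 lower in M8/M3 (7.81% and 10%), and 2 higher in F8/F3 (5.08%). Slco1a4, an organic anion uptake transporter, was likewise lower in M8 than in F8 (log2 -1.74, adjusted p = 0.0033) and fell in M8/M3 (log2 -1.47) and M8/M4 (log2 -1.08). Slc10a2, the apical bile salt transporter of cholangiocytes and ileum, rose in M8/M3 (log2 1.76) and F8/F3 (log2 2.19). Slc51b, a subunit of the basolateral organic solute transporter, fell in M8/M3 (log2 -1.05), and Slco1b2 rose in it (log2 0.92).

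Among 16 receptors and regulators, which include the nuclear receptors that respond to bile acids and xenobiotics, 1 was called lower in M8/F8 (3.74% of all genes), 1 lower in M8/M3 (10%) and 2 higher in F8/F3 (5.08%). Nr1i3 (CAR) was lower in M8 than in F8 (log2 -0.62, adjusted p = 0.0038) and rose in F8/F3 (log2 0.82), Klb rose in F8/F3 (log2 0.65), and Ahr fell in M8/M3 (log2 -0.71). Of 9 sterol uptake and secretion partners, the sterol carrier Scp2 was higher in M8 than in F8 (log2 0.83, adjusted p = 0.00024) and rose in M8/M3 (log2 0.62), as did the lipoprotein receptor Scarb1 (M8/M3 log2 0.61), where 2.65% and 7.81% of all genes were called higher. Of 12 genes of canalicular trafficking and scaffold, 1 was called in 1 comparison, the membrane linker Msn in M8/M3 (log2 -0.59), where 10% of all genes were called lower.

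The genes whose 14 array ratios ran closest to those of each called transporter, among 3535 genes called in at least 1 comparison, were named by Pearson correlation. The arrays share pools and dyes, so the values are descriptions. For Abcg2 they were Mep1b (0.978), Nat8f5 (0.977) and Meig1 (0.972). For Abcb1a they were Fgl1 (0.980), Acss3 (0.979) and Spink5 (0.975). For Abcg8 they were Ldhd (0.981), Akr1c13 (0.971) and Txndc15 (0.962), and for Abcc3 they were Atg2b (0.968), Rad51d (0.960) and Cryl1 (0.955).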

How the data were processed

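Liver RNA pools were hybridized on 14 arrays, 2 for each of 7 comparisons. The deposited values used here are log10 ratios of red over green for each spot, which the authors obtained with Agilent Feature Extraction 10.7.1.1 after background subtraction and dye normalization within the array. The deposited intensity of spots and background (pixel medians) served for the normexp alternative. The deposited series table held the same log10 ratios. Ratios were converted to log2 and turned by the dye given in the labels, and spots of 1 probe were averaged. On all 6 sex arrays Xist was lower and Ddx3y, Uty and Eif2s3y were higher in male liver with this direction.

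The ratios of 39429 probes were fitted with limma 3.58.1 in R 4.3.3, with 1 coefficient per comparison and 1 dye term. Benjamini-Hochberg adjustment ran across the probes of the 7 comparisons as 1 family, and separately for each difference between comparisons. A gene with several probes was represented by the brightest. Signal levels were scaled between arrays (Aquantile) and averaged over the channels of a replicate number. Genes of other lists were named when called in at least 1 comparison, up to 4 per list by size of ratio. The members and lists were chosen with earlier results of these data known. The erythroid marker list is not reported here. The fit was tested on simulated data with shared pools, where it made more false calls than the adjusted p states for the differences between comparisons. With 2 arrays per comparison their number limits the precision. The fit estimated 1 spread per probe over all 7 comparisons. A p-value therefore does not measure how far apart the 2 arrays of its own comparison lay. This spread is between arrays of pooled RNA and not between mice. The paper's Rosetta error model was not used here. Alternatives covered normalization, filters, thresholds, covariance, the replicate block and leaving out each array.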

Additional observations from a re-analysis of the deposited data

Results flagged for a closer look

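Each result here is a change with age that differed between male and female liver by a test of the difference itself (limma with Benjamini-Hochberg adjustment). For Abcg2 the difference was log2 1.12 from 3 to 8 wk (adjusted p = 0.00177) and 0.75 from 4 to 8 wk (adjusted p = 0.0108). For Abcb1a it was log2 -1.17 from 3 to 8 wk (adjusted p = 0.016), and for Abcg8 it was 0.68 from 3 to 8 wk (adjusted p = 0.0182). With the shared pools in the covariance, the adjusted p of Abcg2 from 4 to 8 wk was 0.0626 and that of Abcg8 was 0.108, and neither was called. Leaving out any of the 4 arrays of M8/M3 and F8/F3 ended the Abcg8 call, leaving out either F8/F3 array ended that of Abcb1a, and leaving out the first F8/F4 array ended that of Abcg2 from 4 to 8 wk. In Abcg2 and Abcb1a both male age arrays moved one way and both female age arrays the other, and in Abcg8 all 4 arrays were above 0.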

How the results depend on the processing

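Of 14 called values, 14 stayed called with no dye term, a dye term for each scan day, 6 group means, the replicate block, the deposited series table, either filter on dim probes, adjustment within each comparison, or a fit on bright probes alone (added after seeing the data). None changed sign under any alternative run. With the shared pools in the covariance 12 stayed called, after normexp 11, and under the unadjusted p threshold of 0.0001 or the error-weighted average 10 each. The cause was not tested.

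Counts of called transporters moved as follows. Without the fold threshold they were 5 in M8/F8, 5 in F8/F3, 4 in M8/M4, and 2 each in M3/F3, M4/F4 and F8/F4. With the shared pools they were 0 for sex by age from 4 to 8 wk and 1 for F4/F3. With 6 group means they were 2 and 1 for the same results, and with the fit on bright probes 2 for sex by age from 4 to 8 wk, where Abcb1a was added (adjusted p = 0.0384). In M8/M4 the count was 1 after normexp and 1 under the unadjusted threshold. For sex by age from 3 to 8 wk it was 1 under the unadjusted threshold and 1 with the error-weighted average. Smaller moves included M8/M3, where the count was 6 without the fold threshold. In M8/M3 Abcb1a lost its call after normexp, under the unadjusted threshold and with the error-weighted average. Abcg8 lost its call for sex by age from 3 to 8 wk with the shared pools and after normexp.

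Leaving out each array in turn gave 2 to 2 in M8/F8, 2 to 4 in M8/M3, 2 to 3 in M8/M4, 1 to 3 in F8/F3, 0 to 0 in M3/F3, M4/F4 and F8/F4, 1 to 3 and 0 to 2 for sex by age from 3 and from 4 wk, 0 to 1 for M4/M3 and 0 to 0 for F4/F3. Without the first F8/F4 array Abcg2 lost its call for sex by age from 4 to 8 wk (adjusted p = 0.0503).

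The replicate block changed no count, with 2 in M8/F8, 4 in M8/M3, 2 in M8/M4 and 1 in F8/F3. Correlations of replicate differences between comparisons ran from -0.53 to 0.68 and were above 0.1 in 11 of 21 pairs, so the numbers alone were not taken as pairs, but around the loop of 3 and 8 wk the correlation was 0.88. After normexp the called ratios of the dimmer Abcg8 and Abcb1a probes were smaller (Abcg8 in M8/M3 from 1.20 to 0.77, Abcb1a in M8/F8 from -1.13 to -0.90), while Abcc3 in M8/M3 read 1.70 and Abcg2 in M8/F8 1.24. With 2 pools per group, differences under 1.5-fold were resolved for some probes and not for others.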
